A study of Homo sapiens with 8 samples.

Results

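The 557 genomic regions described here carried an EZH2 peak in both ChIP-seq samples of MMSET-high myeloma cells and no EZH2 peak in either sample of their MMSET-low counterpart. They were chosen by presence and absence in the peak lists themselves. Overlapping or touching peaks of the 4 lists were merged into 11858 regions, and a region was kept when it held at least 1 peak of NTKO run 1, at least 1 of NTKO run 2 and none of TKO run 1 or TKO run 2. The members were 4.7% of all merged regions. They were also 28.9% of the 1930 regions with a peak in both NTKO runs (Wilson 95% interval 26.9 to 30.9%, counting error only). Of the other regions in both NTKO runs, 1016 had a TKO run 2 peak only, 326 had a peak in all 4 lists and 31 had a TKO run 1 peak only. In the opposite direction, 30 regions were found in both TKO runs without any NTKO peak, which was 0.253% of all merged regions and 7.71% of the 389 regions in both TKO runs. Since these counts are fixed by the rule, they are given as descriptions and carry no test.

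NTKO and TKO are both derived from KMS11, a multiple myeloma cell line with the t(4;14) translocation that places MMSET under control of the IGH locus. NTKO cells have lost their wild-type MMSET allele, and the rearranged allele drives high MMSET. TKO cells have lost the rearranged allele instead, and the wild-type allele alone gives low MMSET. Each line is thus a single engineered derivative, and its 2 ChIP samples, called run 1 and run 2, were made with the same anti-EZH2 antibody. Differences between the lines therefore cannot be told apart from differences between these particular derivatives. The labels name no treatment for either line.

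EZH2 is the catalytic subunit of Polycomb repressive complex 2, which trimethylates lysine 27 of histone H3 and holds genes silent, often over developmental regulators. MMSET, also called NSD2, dimethylates lysine 36 of the same histone tail, and nucleosomes carrying lysine 36 methylation are poor substrates for the Polycomb complex. The comparison addresses where EZH2 is found when MMSET is abundant and when it is not.

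The 4 lists differed widely in size, from 651 peaks (TKO run 1) and 2972 (NTKO run 1) to 5516 (TKO run 2) and 10582 (NTKO run 2). The lists do not give the depth of their libraries, and no scaling of heights to library size is stated, so the absence of a TKO peak means that none passed the authors' threshold, not that EZH2 was absent. The number of members depended strongly on single libraries. When TKO run 1 was left out, 588 regions met the rule, whereas 1572 did so without TKO run 2. Without NTKO run 2 there were 1058 such regions, and without NTKO run 1 there were 7447. The share of 28.9% likewise became 81.5% without TKO run 2 and 71.2% without NTKO run 1, and it was 15.3% when members with a TKO peak within 10 kb were dropped too.

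The width of the members had a median of 784 bp, with quartiles of 484 and 1289 bp and a range from 160 to 7364 bp, and together they covered 0.581 Mb. The height of a region in a run, taken as the number of reads at the summit of its highest peak in that run, had a median of 51 in NTKO run 1 (quartiles 46 and 59, range 36 to 212) and of 90 in NTKO run 2 (quartiles 72 and 112, range 43 to 247). Over all peaks of these lists the median height was 52 in run 1 and 63 in run 2, so the median of the members lay next to that of all peaks in run 1 and above it in run 2. The median width depended on single libraries, at 297 bp without NTKO run 1, 230.5 bp without NTKO run 2 and 1274 bp without TKO run 2, and it was 1285 bp with peaks merged within 1 kb. The median run 2 height was 58 without NTKO run 1.

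The regions shared with the TKO line were wider, and they were higher in the same NTKO libraries. The median width was 1667 bp where TKO run 2 also had a peak and 2291 bp where all 4 lists had one. These widths include the extent of the TKO peaks. Counting NTKO run 2 peaks alone, the median covered length was 1613 and 2204 bp in these sets and 736 bp in the members. For NTKO run 1 peaks alone it was 602 and 1701 bp, and 310 bp in the members. In NTKO run 1 the median height was 55 and 97.5 in these sets, and in NTKO run 2 it was 112 and 163.5. At the other end, the 6841 regions seen in NTKO run 2 only had a median width of 277 bp and a median height of 57. The members thus lay between the regions of a single run and those shared with the TKO line on both measures. Since the sets are defined by the lists that called a peak, this order is partly fixed by the rule and is a description. Regions of 1 library are not replicates of each other, so no test was made across them.

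**Figure D1:**
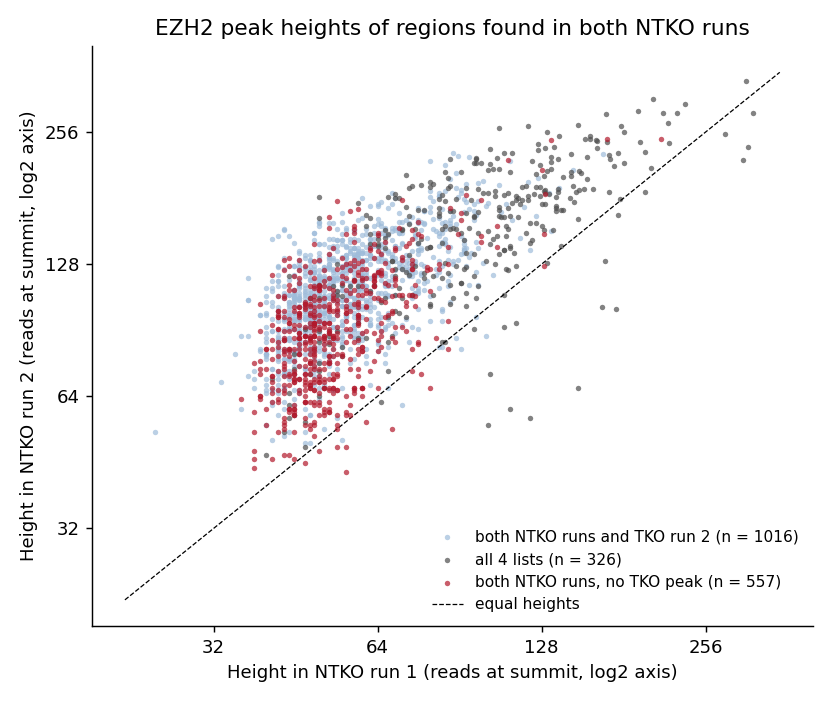
Height of each region in NTKO run 1 (x axis) and NTKO run 2 (y axis), in reads at the summit on log2 axes, for the 557 members, the 1016 regions that also had a TKO run 2 peak and the 326 regions in all 4 lists. Most points lie above the line of equal heights, and the members crowd at the lower left, with medians of 51 in run 1 and 90 in run 2.

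Among all regions in both NTKO runs, the share without a TKO peak was lower at each step up in NTKO run 2 height, with the regions cut into 5 classes of near equal size. It was 56.1% in the lowest class (217 of 387 regions, heights 43 to 82) and 8.40% in the highest (32 of 381, heights 147 to 335). Width gave a similar series, from 59.3% in the narrowest class (229 of 386, 160 to 647 bp) to 5.70% in the widest (22 of 386). The width is that of the merged region, so a TKO peak can widen a region that it also removes from the members. Part of the series for width is therefore fixed by the merging. For NTKO run 1 height the share was 38.1% in the lowest class, 40.6% in the next and 7.27% in the highest. The intervals of the lowest and next classes of run 1 height overlapped, whereas those of the lowest and highest classes were far apart on all 3 measures. These intervals count regions of the same libraries as independent, which neighbouring regions are not. Their overlap or separation is therefore a description and not a test. Height is that of the highest peak in the merged region. A TKO peak that joins several NTKO peaks can therefore also raise the height of a region that it removes from the members. In these terms, low or narrow merged regions were more often without a TKO call than the highest or widest, with these limits for width and height.

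**Figure D2:**
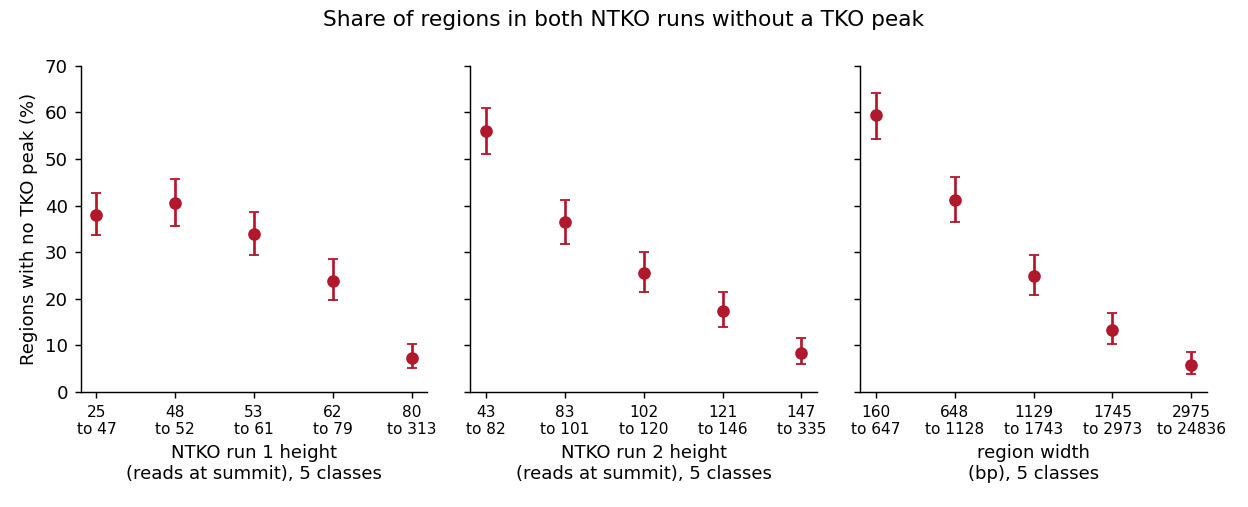
Share of the regions in both NTKO runs that had no TKO peak (y axis, %), in 5 classes of NTKO run 1 height, NTKO run 2 height and region width (x axes, with the range of each class). Region width includes the extent of any TKO peak, and a TKO peak that joins NTKO peaks can also raise the height of a region. Points are shares and bars are Wilson 95% intervals for counting error only, and the share goes from 56.1 to 8.40% across classes of run 2 height and from 59.3 to 5.70% across those of width.

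The heights of the members can be set beside the weakest peaks that were called in the TKO lists. In TKO run 2, the 245 peaks with a −log10 p under 16, just above the threshold of 15, had a median height of 49 and a range from 32 to 74. In TKO run 1, the corresponding 58 peaks had a median of 38 and a range from 33 to 45. The median of the members in NTKO run 1, 51, falls inside the range of the weakest TKO run 2 peaks, and that in NTKO run 2, 90, lies above it. Both medians lie above the range of the weakest TKO run 1 peaks. How heights compare between libraries of unknown depth was not tested.

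The 2 NTKO runs differed in height in nearly all members. Run 2 was the higher in 544 members (97.7%), run 1 in 12, and 1 member had equal heights. The log2 ratio of run 2 to run 1 had a median of 0.78, an SD over regions of 0.37 and a range from −0.38 to 1.72. The same ratio was 0.99 in regions with a TKO run 2 peak and 0.62 in regions in all 4 lists. Ratios above 0 therefore held for shared regions as well as for the members, and run and depth cannot be told apart here. With the mean read level of a peak in place of the summit height the median ratio was 0.42. On the log2 scale the heights of the runs had a Pearson r of 0.58 across the 557 regions, a description of regions that come from the same pair of libraries and that had to pass a threshold in both.

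Evidence for a member was usually uneven between the runs. The score, a −log10 p given for each peak, had a median of 19.2 in run 1 and 32.0 in run 2. In run 1, 317 members (56.9%) scored under 20, and in run 2 only 41 (7.36%) did. Both runs reached 20 in 229 members (41.1%), compared with 58.2% of the regions with a TKO run 2 peak and 91.1% of those in all 4 lists. Scores near the threshold were thus far more frequent in run 1.

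A single peak in each run made up 474 members (85.1%), and in 382 (68.6%) the run 1 peaks lay entirely inside the stretch spanned by run 2. The run 1 peaks covered a median of 310 bp of a member, whereas the run 2 peaks covered 736 bp. The distance between the summits of the runs had a median of 97 bp, and it was at most 100 bp in 281 members (50.4%) and at most 500 bp in 510 (91.6%). Since the rule needs peaks of both runs in 1 merged region, nesting and short distances are largely fixed by it and are given as a description. The distance had a median of 151.5 bp in regions with a TKO run 2 peak and of 118.5 bp in those in all 4 lists, which were also wider.

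The highest member, by the lower of its heights in the runs, lay on chromosome 16 from 84143732 to 84149890 (hg18, as are all positions here). It was 6158 bp wide, had heights of 212 in run 1 and 247 in run 2 with summits 10 bp apart, and ranked 12 of 1930 by run 1 height among the regions in both NTKO runs. On chromosome 20, the region from 46564131 to 46566509 had heights of 169 and 247, and on chromosome 12, the region from 52894408 to 52899373 had 133 and 245. These members stood among the highest EZH2 regions of the line in either run, although no TKO peak was called in them.

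The next members in this order had run 1 heights from 106 to 130. On chromosome 9 from 139180429 to 139184866 the heights were 130 and 185. On chromosome 21 from 35179840 to 35181513 they were 129 and 150, and on chromosome 1 from 154891615 to 154894434 they were 128 and 210. Run 2 was again the higher in each of these. The region on chromosome 1 from 204925502 to 204926722 was the exception among the 10 highest, with heights of 129 and 127 and a log2 ratio of −0.02.

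A pair of further regions on chromosome 16 belonged to the same 10. That from 2951728 to 2955152 had heights of 111 and 221, and that from 1321909 to 1327224 had 106 and 156. The latter had the largest distance between summits of all members, 2074 bp, so the runs placed their highest points in different parts of one region. The last of the 10 lay on chromosome 19 from 16296580 to 16298927, with heights of 106 and 140.

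In the map of called peaks around 6 of these regions, their surroundings differed. Within 25 kb of the centre, the regions on chromosomes 20, 9 and 21 had no TKO peak, and their nearest TKO peaks were 310932, 62868 and 1241742 bp away. They did have further NTKO run 2 peaks in this span, 2, 4 and 2 in number, the closest regions being 423, 167 and 268 bp away. The chromosome 16 region had 4 TKO run 2 peaks in this span, the highest of 66, and 15 further NTKO run 2 peaks. Around the chromosome 12 region lay 1 TKO run 1 peak of 57 and 2 TKO run 2 peaks of at most 80. The chromosome 1 region had 3 TKO run 1 peaks up to a height of 68 and 3 TKO run 2 peaks up to 151 in the same span. All 6 thus had further NTKO peaks around them, and 3 of the 6 had TKO peaks as well.

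**Figure D3:**
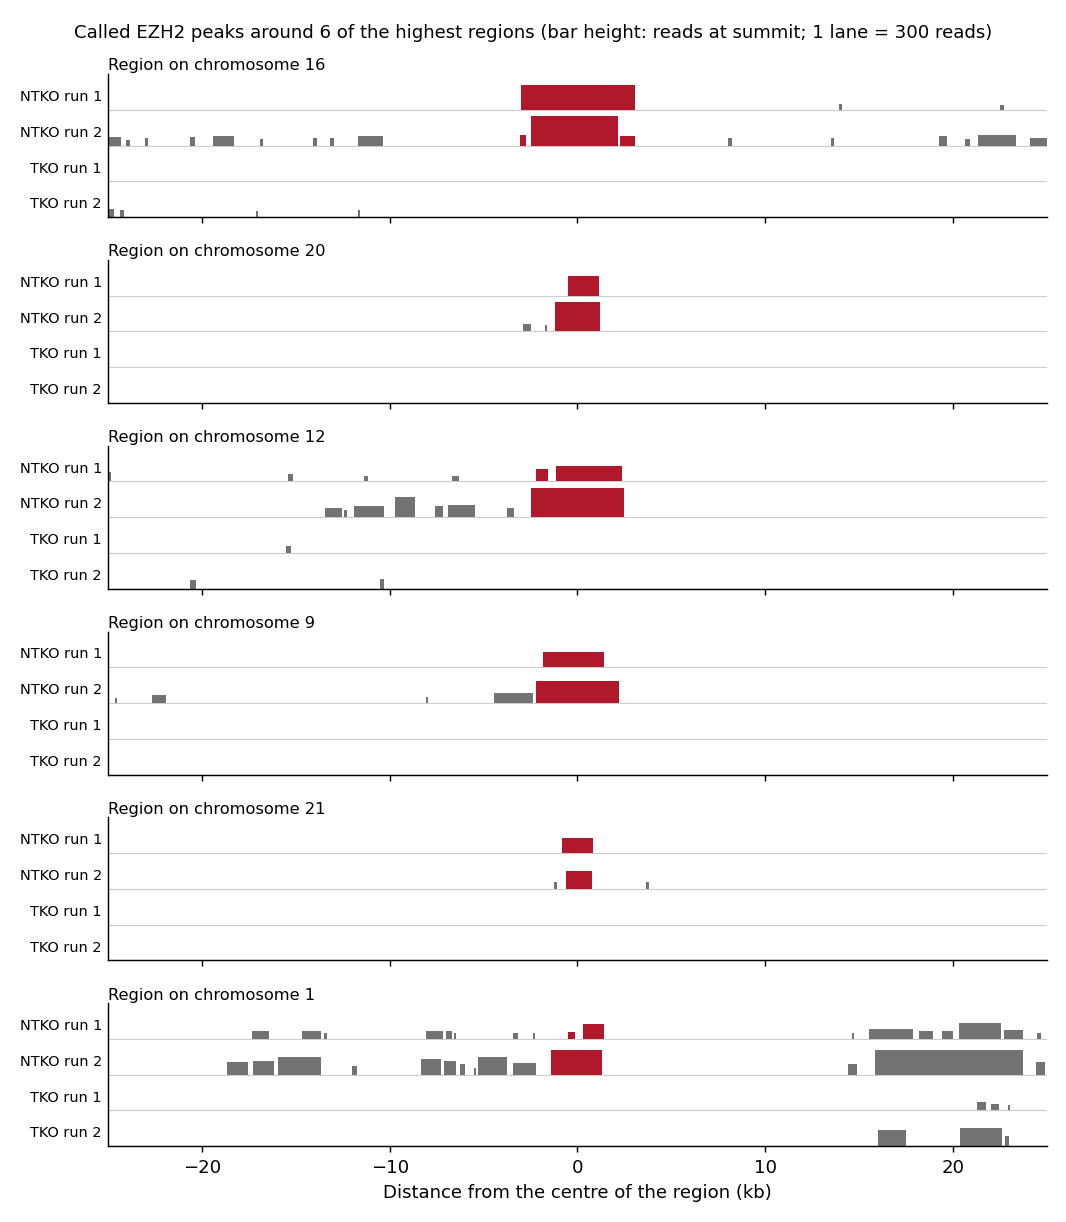
Called peaks of the 4 lists within 25 kb of the centre of 6 of the 10 highest members (x axis, kb from the centre), with bar width showing the extent of a peak and bar height its reads at the summit (1 lane is 300 reads). Red bars are the NTKO peaks of the member and grey bars are other peaks, and the TKO lanes are empty for the regions on chromosomes 20, 9 and 21.

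Height did not always go with width. The widest member, on chromosome 9 from 139898161 to 139905525, was 7364 bp wide with a run 1 height of 54 and a run 2 height of 178, and its log2 ratio of 1.72 was the largest of all. On chromosome 21, a region of 6706 bp from 42946953 to 42953659 held 5 run 1 peaks under 1 run 2 peak, with heights of 99 and 148. A region of 6690 bp on chromosome 1 from 155137354 to 155144044 had heights of 99 and 179. The chromosome 16 regions of 6158 and 5315 bp described above were the next in width.

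Several peaks of at least 1 run were joined in 83 members (14.9%), and 73 of these held more than 1 run 1 peak. On chromosome 19 from 53746196 to 53748379, 4 run 1 peaks lay under 1 run 2 peak, with heights of 52 and 135. On chromosome 9 from 138557223 to 138561712 each run had 2 peaks, with heights of 65 and 88, as did a region on chromosome 21 from 42968583 to 42972310, with heights of 52 and 100. In each of these 3 regions run 2 was the higher.

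Some regions entered or missed the set by a score just past the threshold. The lowest score, 15.0 in run 1, belonged to a region on chromosome 7 from 68702338 to 68702626 with heights of 45 and 69. The next were on chromosome 17 from 37954661 to 37954972, with a score of 15.1 and heights of 39 and 72, and on chromosome 6 from 33885369 to 33885741, with a score of 15.2 and heights of 39 and 64. Just outside, a region on chromosome 17 from 76089811 to 76090165 with NTKO heights of 41 and 61 was lost through a single TKO run 2 peak of height 49 and score 15.0. On chromosome 19 from 702691 to 703186, with NTKO heights of 47 and 97, a TKO run 2 peak of 64 and score 15.2 did the same. On chromosome 17 from 45428359 to 45429959, with NTKO heights of 74 and 143, the TKO run 1 peak had a height of 37 and a score of 15.2. This last region was higher and, at 1600 bp, wider than the 3 members just inside, whose widths were 288, 311 and 372 bp.

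Many members lay close to a peak of the TKO line without overlapping it. A TKO run 2 peak was found within 1 kb of 95 members (17.1%) and within 10 kb of 257 (46.1%, interval 42.0 to 50.3%). With peaks merged within 1 kb the share within 10 kb was 24.1%. The share was 67.7% within 100 kb and 88.5% within 1 Mb, and the median distance was 14545 bp. Among the regions of NTKO run 2 only, 53.0% (interval 51.8 to 54.2%) had a TKO run 2 peak within 10 kb, and the median distance was 8263 bp. The median distance was thus the longer for the members, whereas within 1 kb the shares were 17.1 and 16.6%. For the sparser TKO run 1 list the order was the other way round, with a peak within 10 kb of 10.8% of the members and of 5.35% of the regions of NTKO run 2 only.

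**Figure D4:**
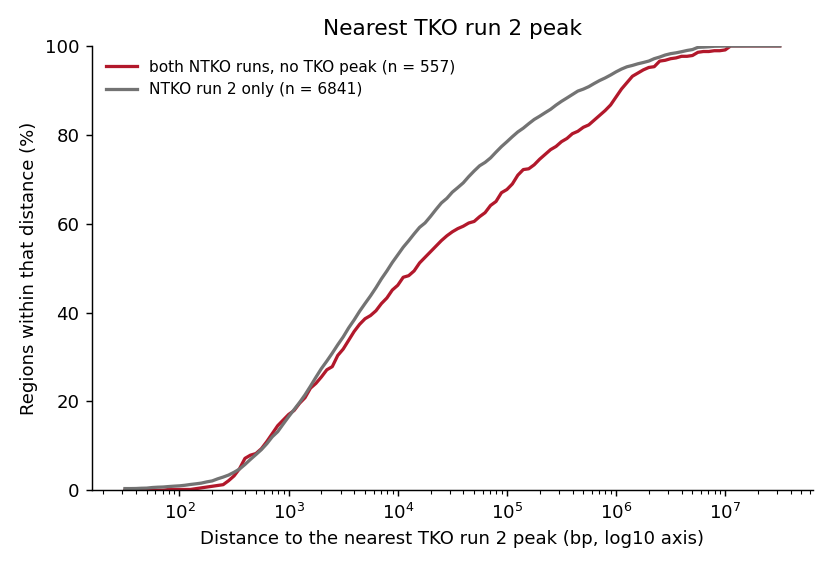
Share of regions (y axis, %) with a TKO run 2 peak within a given distance (x axis, bp, log10 axis), for the members and for the regions of NTKO run 2 only. The curves run together up to about 1 kb, where they stand at 17.1 and 16.6%, and separate to 67.7 and 78.4% at 100 kb.

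The TKO run 2 peaks beside the members mostly belonged to regions with a run 2 peak of both lines. Of the 95 members with such a peak within 1 kb, the nearest TKO run 2 region also held an NTKO run 2 peak in 91 (95.8%), and in 58 it was a region of both NTKO runs and TKO run 2. Over the whole series, 2952 merged regions held a run 2 peak of both lines. The 5516 peaks of TKO run 2 were counted before merging, so these 2952 and 5516 do not make a share of regions. The share over all TKO run 2 regions is not given here, and members lie by rule at NTKO run 2 peaks. The 95.8% is therefore a description. These 91 regions had a median height of 74 in TKO run 2 and of 108 in NTKO run 2, while the members beside all 95 had a median of 83 in NTKO run 2. The neighbouring regions thus had the higher median in the same NTKO library. The region nearest to a TKO peak, on chromosome 2 from 219826978 to 219827822 with heights of 51 and 94, lay 75 bp from it. The next, on chromosome 16 from 3022139 to 3022981 and on chromosome 7 from 1188986 to 1189544, lay 138 and 156 bp away. On chromosome 9 from 138679379 to 138679948 and on chromosome 1 from 1041563 to 1042426 the distances were 166 and 197 bp.

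Distance to the TKO peaks did not order the heights. Members up to 1 kb from any TKO peak (97) had median heights of 50 in run 1 and 83 in run 2. Those from 1 to 10 kb away (165) had 49 and 92, and those from 10 to 100 kb away (118) had 53.5 and 96.5. Those from 100 kb to 1 Mb away (116) had 53.5 and 89, and those over 1 Mb away (61) had 52 and 85. In this order the median widths were 675, 845, 863.5, 779.5 and 911 bp. The members nearest to TKO peaks were thus the narrowest, without a steady rise in width with distance.

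Any other merged region lay within 1 kb of 379 members (68.0%), and the median distance to it was 390 bp. This share was 66.7% for the regions of NTKO run 2 only, 80.9% for those of both NTKO runs and TKO run 2 and 59.8% for those in all 4 lists, so the members lay within the range of the other sets. In 195 of these 379 members (51.5%) the nearest region was one of NTKO run 2 only, and in 83 (21.9%) it was another member. In 92 (24.3%) the nearest region held a TKO peak. Regions of NTKO run 2 only were also the largest set among all merged regions, at 6841 of 11858. Members were 4.7% of all merged regions. The share with a TKO peak over all merged regions is not given here, and no test was made. With members joined when at most 10 kb apart, 370 stood singly and 187 (33.6%) fell into 73 chains of 2 or more. The longest chains held 6 members. Such chains are not given for the other sets, so they are not shown to be particular to the members.

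The chains of 5 or 6 members numbered 7, and they lay on chromosomes 1 and 19. On chromosome 1, 6 members between 154636851 and 154648053 had run 1 heights from 63 to 74 and run 2 heights from 121 to 155. Another 6 between 154875694 and 154894434 had run 1 heights from 49 to 128 and run 2 heights from 94 to 210, and the nearest TKO peak was 13117 bp away. The run 2 heights in both chains were all above the median of the members, 90. Further chains of 5 on chromosome 1 lay between 1041563 and 1054218 and between 10725650 and 10745004.

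On chromosome 19, 6 members between 47123542 and 47136345 had run 1 heights from 44 to 59 and run 2 heights from 71 to 131. A chain of 5 between 4531235 and 4536953 had run 1 heights from 44 to 62. The chain of 5 between 35408121 and 35411462, a span of 3341 bp, held the members farthest from the TKO line, since the nearest TKO peak was 10383343 bp away. Its run 1 heights ranged from 49 to 74 and its run 2 heights from 62 to 100, and no other region of any list lay within 10 kb. These 5 members stood at ordinary heights for the set and were found in both NTKO runs.

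Members were spread over all 24 chromosomes of the lists but were unevenly shared. Chromosomes 1, 19 and 16 held 211 of them (37.9%). These chromosomes also held 237, 162 and 197 of the 1930 regions in both NTKO runs. Of those regions, 34.2, 48.8 and 25.9% had no TKO peak, beside 28.9% over all chromosomes. Among the 20 chromosomes with at least 20 regions in both NTKO runs, the share of these regions without a TKO peak was highest on chromosome 19, at 48.8% (79 of 162, interval 41.2 to 56.4%), and lowest on chromosome 11, at 13.3% (19 of 143, interval 8.67 to 19.8%). Chromosomes 22 and 15 followed chromosome 19 with 48.1 and 45.5%, and chromosomes 4 and 20 were next to chromosome 11 with 17.6 and 20.6%. The intervals of chromosomes 19, 22 and 15 overlapped, as did those of chromosomes 11, 4 and 20. Neighbouring regions are not independent, which these intervals do not take into account. The shares of chromosomes 19 and 11 also depended on single libraries, at 90.1 and 83.2% without TKO run 2, 76.3 and 66.9% without NTKO run 1, and 58.4 and 24.7% without NTKO run 2. With a −log10 p of at least 20 in the NTKO lists they were 27.9 and 10.1%, and with no TKO peak within 10 kb they were 28.4 and 4.20%.

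Heights on chromosomes 19 and 11 can be set beside these shares. In the regions of both NTKO runs, the median run 1 height was 59 on chromosome 19 and 52 on chromosome 11, and the median run 2 height was 107 and 108. Where both lines had a run 2 peak, the log2 ratio of NTKO over TKO height had a median of 0.37 on each of these chromosomes. Over all 2952 such regions the median was 0.25. The depth of these libraries is unknown and no scaling is stated, so line and depth cannot be told apart in these ratios. The part of height in the shares was not tested.

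**Figure D5:**
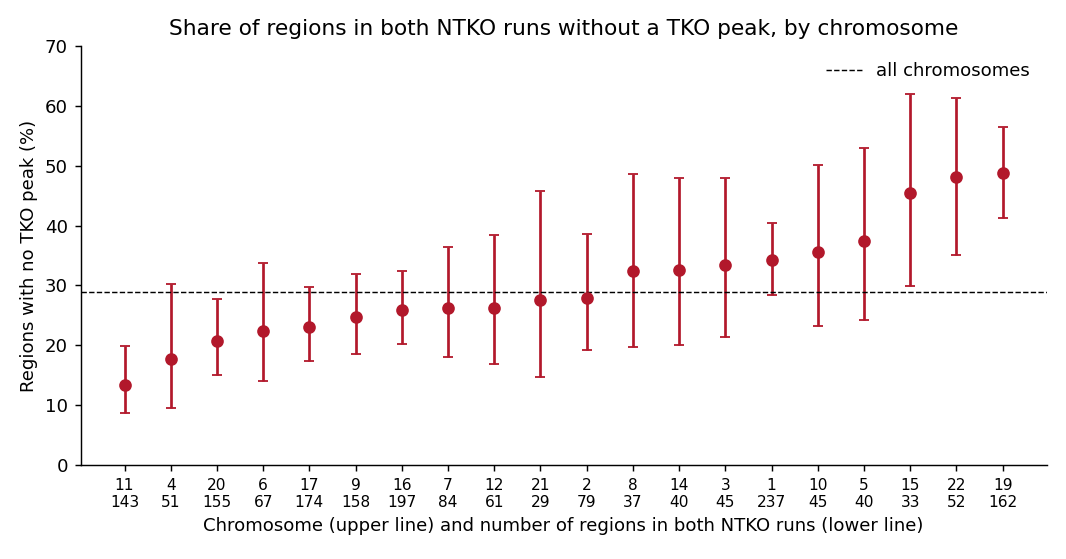
Share of the regions in both NTKO runs without a TKO peak (y axis, %), for the 20 chromosomes with at least 20 such regions (x axis, chromosome and number of regions). Points are shares, bars are Wilson 95% intervals for counting error only and the dashed line is the share over all chromosomes, 28.9%, with chromosome 11 lowest at 13.3% and chromosome 19 highest at 48.8%.

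At the scale of 1 Mb, 262 windows held a member, 164 of them a single one, while 31 windows with 5 or more held 228 members (40.9%). The corresponding share is not given for other sets of regions, so this grouping is not shown to be particular to the members. The fullest window, on chromosome 1 from 154000000 to 155000000, held 17 members, which was 68% of its 25 regions in both NTKO runs. Heights of these 17 members ranged from 48 to 128 in run 1 and from 88 to 210 in run 2. The NTKO runs had 47 and 37 peaks in this window, and the TKO runs had 20 and 14. It was the 1 window of the 31 in which run 1 had more peaks than run 2 in the NTKO line, and likewise the 1 in which it did so in the TKO line.

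In the other full windows the members were a smaller share or the regions fewer. On chromosome 1 from 10000000 to 11000000 there were 15 members among 47 regions in both NTKO runs (31.9%), and from 1000000 to 2000000 there were 12 among 20 (60%). On chromosome 20 from 61000000 to 62000000 the 14 members were 18.7% of 75 regions, and this window also held 199 TKO run 2 peaks. Windows on chromosome 9 from 138000000 to 139000000 and on chromosome 16 from 83000000 to 84000000 held 10 members each, of 59 and 46 regions. All of these windows also held TKO peaks, with TKO run 2 peaks numbering from 14 to 199.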

How the data were processed

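EZH2 ChIP-seq of 4 samples was analysed, 2 of NTKO and 2 of TKO cells, and the 4 input samples entered only through the authors' peak calls. The submitters' processing notes name CASAVA 1.8 and BWA. The authors mapped reads with BWA against hg18, discarded reads at identical positions and ran ChIPseeqer on each sample with its input as control. A call needed a difference of 2-fold and a −log10 p reaching 15. Replicates were not pooled. In the deposited lists the score of a peak is its log10 p, written as infinite for 4, 7, 2 and 3 peaks of NTKO run 1, NTKO run 2, TKO run 1 and TKO run 2. The signal columns deposited by the authors are the mean read level and the height at the summit, with no stated scaling to library size. The percent column deposited by the authors, the place of the summit in the peak, was not needed. The lists do not give library depth, and depth was not used here, so the counting precision of a height is unknown.

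Peaks of the 4 lists were merged when overlapping or touching. The members and the lists compared were chosen with earlier results of these data known. A run's height in a region is that of its highest peak, and its score is the largest score of any of its peaks there. Shares have Wilson 95% intervals for counting error only. No test was made: the rule used presence in the lists, regions are not replicates, and an exact permutation test of 2 against 2 samples cannot go below 0.333. Both samples of a line are described as independent biological replicates in the results text of the study. For its later steps the study took the run 2 peaks of each line. Named regions are the 10 with the highest lower-of-2-runs height, the 5 widest, the 5 with the most NTKO peaks, the 3 just inside and 3 just outside the threshold, the 5 nearest to and 5 farthest from a TKO peak, and the fullest 1 Mb windows (the fifth place was a tie). Chains and classes of height and width were described in addition, and the chains and windows named were chosen by size.

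The lists are in hg18: 55 peaks of NTKO run 2 and 3 members run beyond GRCh37 chromosome ends, so positions were not converted and are given as in the lists, which do not state whether they count from 0 or 1. An hg18 genome and annotation were not used here, so no gene, start site, GC content or sequence is given. Alternatives were stricter scores, merging within 1 kb, 50% mutual overlap of the NTKO runs, removal of members near a TKO peak, mean level for summit height, the nearest pair of summits and leaving out each sample. The merging and counting steps were tested on simulated data. Python 3.11.15 was used with pandas 2.3.3, numpy 2.4.6, matplotlib 3.10.9 and scipy 1.17.1.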

Additional observations from a re-analysis of the deposited data

How the results depend on the processing

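Of 106 values under alternative settings, for 11 results, 56 stayed within the tolerance and 50 moved past it. The tolerance was 1.5-fold for counts, the Wilson interval for shares, the 95% order-statistic interval of the median for the log2 ratio and summit distance, and the SD between runs for heights and widths. For run 1 height this gave a band of 23.4 to 78.6, from below the lowest member, 36, to above the upper quartile, 59. Staying within that band therefore says little about run 1 height. The number of members was 309 with a −log10 p of at least 20 in all lists, 229 with that limit in the NTKO lists only, 353 with peaks merged within 1 kb, 217 with 50% mutual overlap and 295 with no TKO peak within 10 kb. In the same order, where it moved, the share of regions in both NTKO runs without a TKO peak was 20% (limit in the NTKO lists), 26.0% (1 kb), 26.5% (overlap), 23.8% (no TKO peak within 1 kb) and 15.3% (within 10 kb). The share of members with a TKO run 2 peak within 10 kb was 33.7% and 34.5% with the limit in all and in the NTKO lists, 24.1% with merging, 39.6% with mutual overlap and 35% with no TKO peak within 1 kb. With no TKO peak within 10 kb it is 0 by construction and was not computed.

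The median width was 1285 bp with merging within 1 kb. The median log2 ratio of run 2 to run 1 was 0.71 and 0.72 with the limits, 0.60 with mutual overlap and 0.42 with the mean level, which gave a run 2 median of 51.0. The median summit distance was 118, 117 and 124 bp with the limits in all and in the NTKO lists and with merging. The chromosome 11 share was 4.20% with no TKO peak within 10 kb. The chromosome 19 share was 38.4%, 27.9%, 39.7%, 40.1% and 28.4% with the limit in all and in the NTKO lists, merging, and no TKO peak within 1 kb and within 10 kb. With no TKO peak within 1 kb or 10 kb, the shares without a TKO peak can only fall, since members leave an unchanged total. Dropping members within 1 kb of a TKO peak likewise lowers the share with a TKO run 2 peak within 10 kb. The cause of the other shifts was not tested.

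Leaving out each sample in turn, the number of members ranged from 588 (without TKO run 1) to 7447 (without NTKO run 1), the share without a TKO peak from 30.5 to 81.5%, the width from 230.5 to 1274 bp, run 1 height from 49 to 53, run 2 height from 58 to 105, the log2 ratio from 0.78 to 0.92 and the summit distance from 95 to 127.5 bp. The share with a TKO run 2 peak within 10 kb ranged from 45.2 to 59.3%, and the chromosome 11 and 19 shares from 13.3 to 83.2% and from 48.8 to 90.1%. Of the 10 highest members, 9 were kept with mutual overlap and 8 with no TKO peak within 10 kb. No paired analysis was possible because no result comes from a test that could carry the run number as a block, and within-run heights were compared as values only. Alternatives for start sites and GC content were not run, since no hg18 reference was used here. Library depth, which the lists do not give, limits what the absence of a peak means.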
